A study of Mus musculus with 10 samples.

Results

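The knockout effect on heart RNA at 12 months of age was set against the knockout effect at 3 months, gene by gene. The 2 ages were deposited in separate tables of FPKM (fragments scaled by transcript length and by the number mapped in the library), so each gene was first compared between knockout and control within its own age, as a difference of log2(FPKM + 1). The 3-month difference was then subtracted from the 12-month difference. This value is called the contrast here: above 0, the knockout value stood higher relative to its own controls at 12 months than at 3 months, and below 0 it stood lower. Levels of the 2 ages were not compared. The genes were the 11180 autosomal genes that averaged at least 1 FPKM in each table, out of 46786 genes found in both tables by identifier and 42089 of these on autosomes. Of the other autosomal genes, 28880 averaged under 1 FPKM in both tables, 567 reached it only at 3 months and 1462 only at 12 months. BC025920, with a lower table mean of 1.0 FPKM, lay just inside the limit and Pycr1, at 0.9999, just outside it.

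The hearts came from mice labelled control (3 libraries at 3 months, 2 at 12 months) or Prdm16 knockout (3 and 2). The labels used here do not say which allele was deleted, in which cells, what genotype the controls carried, which strain was used or whether each library is a separate animal, so a p-value reflects only the spread among libraries, which may be technical. The series title speaks of a heart phenotype that depends on age, and the contrast addresses that question. By their labels, poly(A) RNA with strand information was sequenced at 3 months, while the 12-month libraries were prepared at another institute, so age and library preparation cannot be told apart in what differs between the tables.

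PRDM16 is a zinc-finger protein of the PR/SET family that binds DNA with partner factors and turns gene programmes on or off. It is best known for keeping brown fat cells in their identity, where it favours genes of heat production and fatty acid oxidation. In the heart it is found in developing and adult ventricular muscle, and human PRDM16 variants have been linked to cardiomyopathy. A heart under load typically shows more natriuretic peptide and ankyrin repeat protein RNA, more stress-response and matrix-remodelling RNA, and a shift in the balance of fatty acid oxidation.

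Several features of the libraries bear on every value that follows. The 2 control libraries of 12 months were very close to each other. Over genes with a single annotated transcript, their reads, recovered from the steps of the low values, differed by 1.18 to 1.9 times the variance that sampling alone gives, while the 2 knockout libraries of that age differed by 4.79 to 68.5 times. A chi-square test still separated the controls from sampling noise (largest p over 4 ranges of read number 1.28e-05). That test cannot tell separate animals from 2 preparations of 1 sample, since both can exceed sampling noise. Both controls were kept as labelled, and each count of calls is also given with their mean counted as 1 sample. The female-expressed RNA Xist was at 33.1 and 31.0 FPKM in the 12-month controls and at 0.0911 and 0.024 in the 12-month knockouts, and at 0.490 or below in every 3-month library. The Y-linked gene Ddx3y showed the reverse, at 0.0352 and 0.0114 in the 12-month controls and 16.5 to 24.5 in all other libraries. By these RNAs the 12-month controls read as female and all other libraries as male. Sex and genotype therefore cannot be told apart at 12 months, nor in the contrast, and this holds for autosomal genes too. Depth read from the low values was about 21600000 to 31000000 reads at 12 months and is unknown at 3 months. Knockout replicate 2 of 3 months stood apart from the other libraries of its age, at a robust SD of 0.276 to 0.488 in log2 ratio. The cardiac muscle markers Myh6, Tnnt2, Myl2 and Actc1 were abundant in all libraries.

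Prdm16 itself showed no detectable difference between ages. It stood at 1.44, 2.23 and 1.61 FPKM in the 3-month controls and 1.43, 0.760 and 2.03 in the 3-month knockouts, which overlapped. The 12-month values were 6.31 and 5.05 FPKM in controls, 4.02 and 3.58 in knockouts, which did not overlap. The contrast was -0.25 (SE 0.31 on the log2 scale; limma, Benjamini-Hochberg adjusted p = 0.747). Reads over exons that remain after a deletion still count toward the gene, so this value tests the labels only weakly.

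Across genes, the knockout minus control difference was wider at 12 months, where Xist and Ddx3y also separated the groups. It had little in common with the difference at 3 months. The SD of the effects over the 11180 genes was 0.287 at 3 months and 0.410 at 12 months. The median spread between libraries of a group, pooled over controls and knockouts, was 0.166 and 0.158. The 12-month value pools unlike pairs, with a robust SD in log2 ratio of 0.107 between the controls and 0.408 between the knockouts. Within groups of 3 months it was 0.14 to 0.306. A 12-month effect also averages 2 libraries per group, against 3, so equal noise at both ages is not shown. An effect of at least 1 (2-fold on this scale) in either direction was seen in 100 genes at 3 months and 334 genes at 12 months. Of these, 24 reached it at both ages in the same direction and 10 in opposite directions. The correlation of both effects across genes was weak (Pearson r = 0.124, Spearman rho = 0.143), and genes of a library are not independent. It turned to -0.047 without knockout replicate 2 of 12 months and was 0.22 without replicate 1.

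The contrast passed the test in 159 of the 11180 genes (limma, Benjamini-Hochberg adjusted p under 0.05), 1.42% of those tested. It was above 0 in 75 genes (0.671%) and below 0 in 84 (0.751%). An unadjusted p under 0.05 was found for 1721 genes. Over all genes tested, the contrast was above 0 in 40.8%, and knockouts were higher in 64.4% at 3 months and 52.7% at 12 months. The counts of directions in gene lists below are to be read beside these shares. With the 12-month controls counted as 1 sample, 36 genes passed, 19 above 0 and 17 below, and all 36 were among the 159. Below, a call that held means that it also passed in that way, and every other call named here was lost when either of the 12-month controls was left out. Without knockout replicate 1 of 12 months 770 genes passed, and without replicate 2 341. Rescaling moved the balance of directions: 47.2% of calls lay above 0 as deposited, 61.1% of 208 after median-of-ratios rescaling and 26.4% of 140 after rescaling each library to the same total. These rescalings moved the median contrast of all genes from -0.08 to 0.01 and -0.27, and 95 of the 159 genes passed under both.

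Most called genes had opposite signs at the 2 ages. The calls were made on the difference of the 2 effects, which itself favours opposite signs. The counts of patterns therefore describe the calls and test nothing further. Of the 159, 73 were higher in knockouts at 3 months and lower at 12 months and 52 the reverse, while 27 were higher at both ages and 7 lower at both. Over all 11180 genes, 28.1% and 16.4% fell into the first pair of patterns and 36.3% and 19.2% into the other. In 129 of the 159 the 12-month effect was the larger in size. The share of all genes with this pattern was not counted, so this number is not read as a trait of the called genes. Effects over all genes were also wider at 12 months, with a median size of 0.162 at 3 months and 0.191 at 12 months. Within an age, limma called 91 of 12200 genes at 3 months (0.746%) and 52 of 13179 at 12 months (0.395%), chromosomes of all kinds included. The 12-month calls rest on both controls of that age: limma called 0 of 13179 genes with these controls counted as 1 sample (430 at an unadjusted p under 0.05), and 0 without control replicate 1 (442) or 2 (443). Without knockout replicate 2 it called 673 genes and without replicate 1 4463. Of the 159 genes, 20 were also called at 3 months only, 15 at 12 months only, 7 at both ages and 117 at neither. By type, 142 of the 159 were protein-coding and 12 were processed pseudogenes, for which reads may also fit the parent gene.

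**Figure D1:**
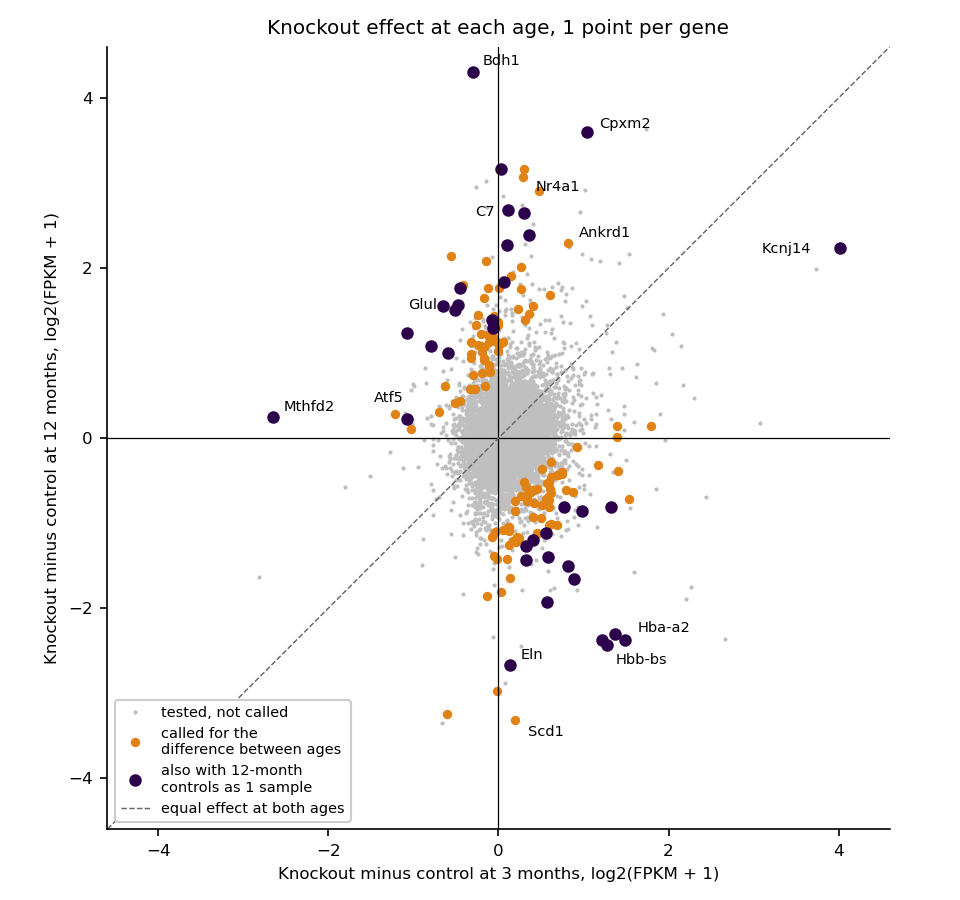
Each point is a gene, with the knockout minus control difference in log2(FPKM + 1) at 3 months on the horizontal axis and at 12 months on the vertical axis. Orange and dark points are the 159 genes called for the difference between ages, dark points the 36 that also passed with the 12-month controls counted as 1 sample. The called points lie mostly along the vertical axis and in the quadrants of opposite sign, away from the dashed line of equal effects. Calling genes on the difference itself favours such positions.

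The gene with the largest contrast was Bdh1, the mitochondrial 3-hydroxybutyrate dehydrogenase that oxidises the ketone body 3-hydroxybutyrate. It stood at 21.6, 24.0 and 15.4 FPKM in the 3-month controls and 16.7, 12.7 and 19.3 in the 3-month knockouts. In 12-month controls it stood at 2.39 and 2.49 FPKM, and in 12-month knockouts at 40.2 and 112. The groups overlapped at 3 months and were far apart at 12 months. The contrast was 4.62 (SE 0.50; limma, Benjamini-Hochberg adjusted p = 0.00183; exact two-sided permutation p = 0.05, where 0.0167 is the smallest this design allows). The call held (adjusted p = 0.0152) and passed under every alternative. Bdh1 lies on chromosome 16 (31422280 to 31458901, plus strand, GRCm38).

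C7, a component of the complement membrane attack complex, stood at 1.90 to 2.39 FPKM in 3-month controls, 1.91 to 3.18 in 3-month knockouts, 1.22 in both 12-month controls, and 13.9 and 12.6 in 12-month knockouts. The groups overlapped at 3 months and not at 12 months. Its contrast was 2.57 (SE 0.23; limma adjusted p = 0.00062; exact two-sided permutation p = 0.25), and the call held. The permutation test shuffles labels within each age and gives a low p mainly where the effects of both ages are large and opposite. No other of the 16 measured complement genes passed, and the list's median contrast of -0.02 changed sign after median-of-ratios rescaling (0.08).

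Cpxm2, a secreted member of the carboxypeptidase family, was higher in knockouts at both ages and more so at 12 months. It stood at 2.77, 2.08 and 2.27 FPKM in 3-month controls, 6.86, 4.96 and 6.01 in 3-month knockouts, 1.27 and 0.864 in 12-month controls, and 18.5 and 31.0 in 12-month knockouts. Neither age showed overlap. The effects of 1.04 and 3.60 each passed within their age (limma adjusted p = 0.0158 and 0.0498), and the contrast of 2.56 (SE 0.30; adjusted p = 0.00238) held. Serpina3n, an acute-phase protease inhibitor, had a contrast of 2.87 from 12-month knockout values of 7.26 and 31.7 FPKM against 0.725 and 0.951 in controls. That call (adjusted p = 0.0473) did not hold (0.19) and was lost when any of the 3-month libraries was left out. Timp4, an inhibitor of matrix metalloproteinases that is abundant in heart and was chosen after its values were seen, stood at 4.30 and 3.98 FPKM in 12-month controls and 16.6 and 17.9 in knockouts, with no such separation at 3 months. Its contrast of 1.79 (adjusted p = 0.0201) did not hold (0.113).

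Fkbp5, Sgk1 and Glul had contrasts above 0 that held, and Sgk1 and Glul were chosen after their values were seen. Fkbp5, a co-chaperone of the glucocorticoid receptor, stood at 1.22, 1.69 and 1.31 FPKM in 3-month controls, 2.22, 1.76 and 1.93 in 3-month knockouts, 2.61 and 2.49 in 12-month controls, and 16.3 and 27.4 in 12-month knockouts. Groups did not overlap at either age, and the separation was much wider at 12 months. Its contrast was 2.34 (SE 0.27; limma adjusted p = 0.00238; exact two-sided permutation p = 0.333), and the call held. Sgk1, a kinase that acts on ion channels, stood at 9.70 to 10.1 FPKM in 3-month controls, 8.74 to 9.96 in 3-month knockouts, 15.6 and 17.1 in 12-month controls, and 50.2 and 39.2 in 12-month knockouts. Its contrast of 1.47 (adjusted p = 0.00393) held, though it was lost after rescaling to equal totals (0.0618). Glul, glutamine synthetase, stood at 79.2 to 108 FPKM in 3-month controls and 61.8 to 71.6 in knockouts, and at 72.1 and 73.1 against 234 and 202 at 12 months. The direction thus differed between ages, and the contrast of 2.04 (adjusted p = 0.00146) held. The pseudogene Glns-ps1, a copy of the same enzyme's gene, had a contrast of 2.01, and reads of such a pair cannot be told apart with certainty.

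Per1, a core clock gene, reached 26.9 and 10.9 FPKM in 12-month knockouts against 3.16 and 3.44 in controls, and its contrast was 2.23 (adjusted p = 0.0252). Ddit4, an inhibitor of mTORC1 signalling, had a contrast of 1.43 (adjusted p = 0.0154), and Hsd11b1, which regenerates active glucocorticoid, a contrast of 1.50 (adjusted p = 0.0332). These 3 calls did not hold (adjusted p = 0.136, 0.103 and 0.165). Ddit4 and Hsd11b1 were chosen after their values were seen. The Hsd11b1 call was also lost without any of the 3-month libraries, and that of Per1 without control replicate 2 or 3 or any knockout of 3 months. Of the 17 clock genes measured, Per1 alone passed, with 12 of 17 contrasts above 0 and a median of 0.30. The sources used here do not state the time of day at collection.

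Depp1, Fmo2, Nampt and Tmem144 also had contrasts above 0 that held. Depp1, a gene induced by fasting and by FOXO factors, stood at 8.72 to 11.1 FPKM in 3-month controls, 12.6 to 13.9 in 3-month knockouts, 10.1 and 9.81 in 12-month controls and 56.9 and 55.7 in 12-month knockouts. Its contrast was 2.03 (SE 0.18; limma adjusted p = 0.000578). Fmo2, a flavin-containing monooxygenase, stood at 4.70 and 6.72 FPKM in 12-month controls and 30.0 and 31.9 in knockouts, with overlapping groups at 3 months, and had a contrast of 2.17 (adjusted p = 0.00199). Nampt, which makes the NAD precursor nicotinamide mononucleotide, had a contrast of 1.35 (adjusted p = 0.00393) that was lost after rescaling to equal totals (0.0642). It stood at 24.4 and 25.1 FPKM in 12-month controls and 62.4 and 61.7 in knockouts. Depp1, Fmo2 and Nampt were singled out after their values were seen. Tmem144, a transmembrane protein gene, had a contrast of 2.22 (adjusted p = 0.00507), with effects of -0.46 at 3 months and 1.77 at 12 months.

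**Figure D2:**
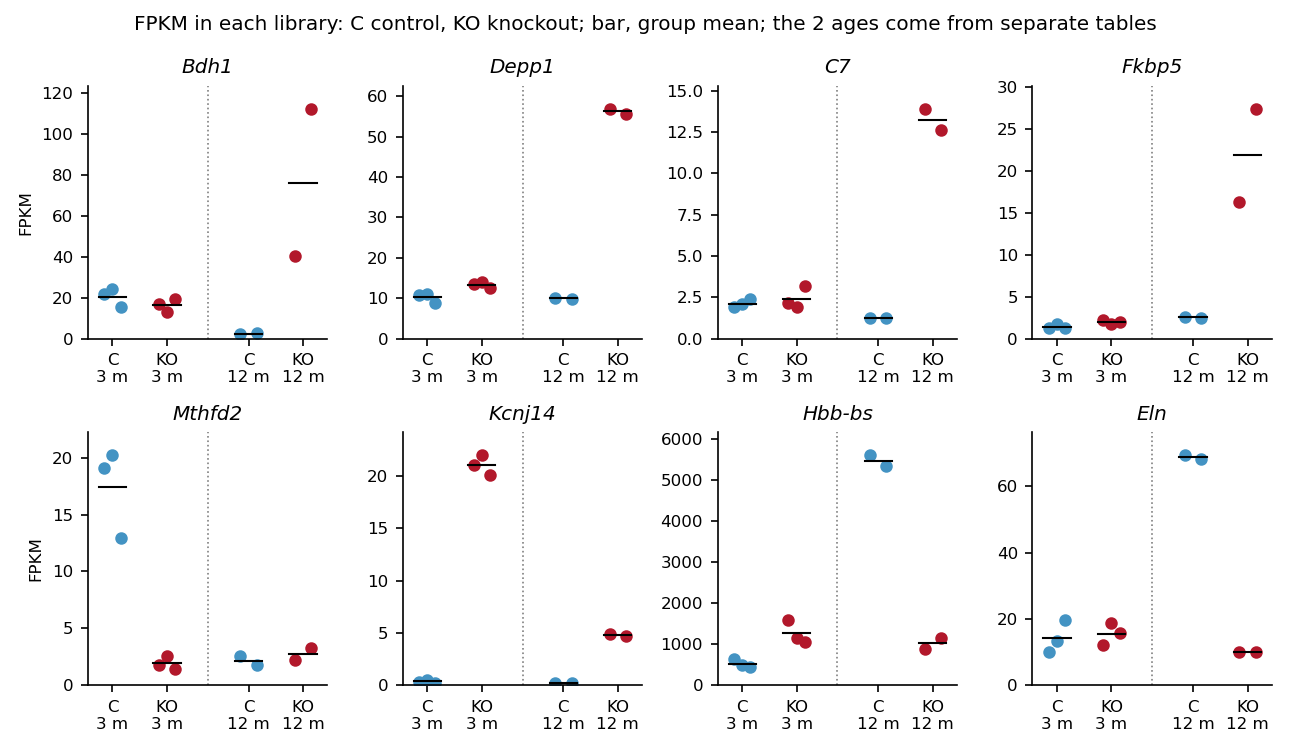
Each point is the FPKM of a library, with control (C, blue) and knockout (KO, red) at 3 and 12 months on the horizontal axis and black bars for group means; each panel starts at 0. Bdh1, Depp1, C7 and Fkbp5 are high only in the 12-month knockouts among the groups of their own age, Mthfd2 is low in the 3-month knockouts, Kcnj14 is high in knockouts of both ages, and Hbb-bs and Eln are low in the 12-month knockouts.

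Mthfd2, the mitochondrial folate enzyme that is induced in the integrated stress response, reached its contrast from the 3-month side. It stood at 19.1, 20.2 and 12.9 FPKM in 3-month controls and 1.76, 2.56 and 1.42 in 3-month knockouts. At 12 months it stood at 2.52 and 1.73 FPKM in controls and 2.20 and 3.25 in knockouts, which overlapped. The contrast was 2.90 (SE 0.33; limma adjusted p = 0.00208) and held. Atf5, a transcription factor of the same response, likewise was lower in knockouts at 3 months (92.0, 108 and 80.2 FPKM in controls, 39.2, 37.9 and 40.8 in knockouts). At 12 months it stood at 25.4 and 26.4 FPKM in controls and 26.7 and 37.6 in knockouts. Its contrast of 1.50 (adjusted p = 0.013) did not hold (0.1). Chac1, a glutathione-degrading enzyme induced by ATF4, stood at 1.04 and 0.764 FPKM in 12-month controls and 2.97 and 4.68 in knockouts, with a 3-month effect of -0.26. Its contrast of 1.59 (adjusted p = 0.0125) did not hold (0.0772).

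Over the integrated stress response list, 4 of 21 measured genes passed, all above 0, and none below. These were Mthfd2, Chac1, Atf5 and Ddit4. Of the 21, 13 were lower in knockouts at 3 months and 19 were higher at 12 months. The list's median contrast was 0.52, against -0.08 over all genes tested.

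Immediate early genes, transcription factors and regulators that are switched on within minutes of a stimulus, stood higher in the 12-month knockouts. In 21 of the 22 measured members the 12-month effect was above 0 and in 20 the contrast was, with medians of 0.97 for the 12-month effect, 0.14 for the 3-month effect and 0.92 for the contrast. The contrast passed in 4 of the 22, all above 0: Nr4a1, Klf4, Btg2 and Cebpb. Nr4a1, an orphan nuclear receptor, stood at 1.44 to 2.36 FPKM in 3-month controls, 2.48 to 2.61 in 3-month knockouts, 2.09 and 2.36 in 12-month controls, and 45.7 and 14.8 in 12-month knockouts. Both 12-month knockouts lay above both controls, but far apart from each other. Its contrast was 2.78 (SE 0.49; limma adjusted p = 0.0218). None of the 4 calls held (adjusted p = 0.113 for Nr4a1, 0.107 for Klf4, 0.187 for Btg2 and 0.188 for Cebpb). Abra, a muscle actin-binding activator of serum response factor signalling, had a contrast of 2.70 (adjusted p = 0.0234), from 12-month values of 12.4 and 11.7 FPKM in controls and 32.7 and 98.0 in knockouts, and did not hold (0.118).

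Genes of protein quality control showed both directions. Of 20 heat shock and chaperone genes, 2 passed above 0, the co-chaperone Dnajb4 (1.09, adjusted p = 0.0201) and the cardiac small heat shock protein gene Hspb7 (1.07, adjusted p = 0.0452), and 1 below 0, Hspa5. Hspa5 encodes the main chaperone of the endoplasmic reticulum. It stood at 184, 195 and 156 FPKM in 3-month controls, 231, 245 and 220 in 3-month knockouts, 319 and 320 in 12-month controls, and 198 and 214 in 12-month knockouts. Its groups did not overlap at either age, with opposite directions, and the contrast was -1.02 (SE 0.19; limma adjusted p = 0.0261). Opposite signs at both ages were also seen in 5 other called genes, picked after their values were known: Sdf2l1 (-1.85), Manf (-1.11), Ckap4 (-1.07), Pdia6 (-0.88) and Ssr2 (-0.81). Of these calls only that of Sdf2l1, a partner of endoplasmic reticulum co-chaperones, held (adjusted p = 0.00493 and 0.0414). Other endoplasmic reticulum chaperones did not pass: Calr had a contrast of -0.76 (adjusted p = 0.0913) and Hsp90b1 one of -0.65 (0.113), while that of Dnajb9 was 0.23 (0.583). The calls of Manf, Pdia6 and Ssr2 were lost without any of the 3-month libraries.

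Sdf2l1 stood at 10.1, 7.55 and 6.89 FPKM in 3-month controls and 15.5, 20.1 and 15.7 in 3-month knockouts. At 12 months it stood at 7.50 and 7.87 FPKM in controls and 3.42 and 4.16 in knockouts. The exact permutation p was 0.0167, the smallest that this design allows. It reuses the contrast on which the gene was called and picked, so it adds no independent support.

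The globin genes had the largest contrasts below 0 among called genes and reversed direction between the ages. Hbb-bs, an adult beta-globin gene, stood at 644, 480 and 434 FPKM in 3-month controls and 1590, 1140 and 1060 in 3-month knockouts. Its 12-month values were 5600 and 5340 FPKM in controls and 890 and 1150 in knockouts. No group overlapped its own-age control, and the signs were opposite. The effects were 1.28 and -2.43, each called within its age (limma adjusted p = 0.0376 and 0.041), and the contrast was -3.71 (SE 0.31; adjusted p = 0.000486). Hba-a2, Hba-a1 and Hbb-bt, the other adult globin genes, had contrasts of -3.87, -3.67 and -3.59 (adjusted p = 0.000409 each), and were likewise called in opposite directions within the ages. All 4 calls held and passed under every alternative. Each reached an exact permutation p of 0.0167, which reuses the contrast of the call and adds no independent support. The globin copies are near-identical within each pair, so how reads were divided among them is uncertain.

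Of the 7 red blood cell markers that could be tested, 6 passed, all below 0, and the list's median effect was 1.22 at 3 months and -2.30 at 12 months. Their summed level was 857 to 1158 FPKM in 3-month controls and 2130 to 3157 in 3-month knockouts, and 10920 and 10780 in 12-month controls against 2049 and 2260 in 12-month knockouts. In bulk tissue fewer cells of a type and less RNA per cell cannot be told apart, and blood left in a dissected heart was not measured otherwise. The direction of the Xist difference at 12 months was that of the globins, and its part in the result was not tested.

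RefSeq (GRCm38.p6) promoter sequences are shown for the globin genes and for the genes of largest contrast above 0 that the sequence table held, because these genes have the widest differences between ages. Each line gives the 250 bases before the annotated start, 5' to 3' on the gene's strand, with CACCC and CCAAT boxes on either strand in capitals. Both boxes are classic elements of globin promoters.
Hba-a2 (chr11:32296242-32296491, plus strand): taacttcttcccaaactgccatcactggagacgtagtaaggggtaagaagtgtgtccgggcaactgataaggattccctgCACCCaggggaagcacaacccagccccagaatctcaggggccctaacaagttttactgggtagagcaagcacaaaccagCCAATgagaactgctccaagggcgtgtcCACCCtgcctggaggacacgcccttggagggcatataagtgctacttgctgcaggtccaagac
Hbb-bs (chr7:103827929-103828178, minus strand): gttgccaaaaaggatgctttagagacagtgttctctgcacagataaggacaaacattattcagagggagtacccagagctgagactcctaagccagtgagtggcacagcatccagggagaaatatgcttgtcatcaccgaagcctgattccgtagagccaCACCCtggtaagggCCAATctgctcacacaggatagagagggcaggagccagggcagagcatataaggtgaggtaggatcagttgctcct
Bdh1 (chr16:31422047-31422296, plus strand): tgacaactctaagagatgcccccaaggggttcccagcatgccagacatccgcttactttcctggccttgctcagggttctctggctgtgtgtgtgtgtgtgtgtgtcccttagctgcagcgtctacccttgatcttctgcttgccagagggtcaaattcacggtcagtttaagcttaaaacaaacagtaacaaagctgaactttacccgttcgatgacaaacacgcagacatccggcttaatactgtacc
Mthfd2 (chr6:83317605-83317854, minus strand): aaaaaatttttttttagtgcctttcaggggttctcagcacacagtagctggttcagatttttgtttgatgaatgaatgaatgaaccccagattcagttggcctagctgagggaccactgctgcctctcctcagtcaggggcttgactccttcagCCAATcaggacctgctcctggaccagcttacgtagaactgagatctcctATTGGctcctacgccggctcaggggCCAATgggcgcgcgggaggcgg
In Hba-a2 a CCAAT box began 91 bases before the start, with CACCC 63 and 170 bases before it. In Hbb-bs CACCC began 90 and CCAAT 76 bases before the start, so the order of the boxes nearest the start differed between the alpha- and beta-globin genes. Mthfd2 held CCAAT 3 times and no CACCC, and Bdh1 held neither, in the windows shown. The table lists 2 promoters for Bdh1, of which the one nearest the GENCODE start is shown, and the RefSeq start of Mthfd2 lies 8304 bases from the GENCODE start. Such short words are common: CACCC was found in 52.0% and CCAAT in 33.8% of 32851 promoters of this length. TGANTCA (AP-1), TGACGTCA (CRE) and CATTCC (MCAT), found in 6.75%, 1.55% and 12.6% of promoters, were in none of the 4. A match is a description of the letters and shows no binding.

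Several genes of B and T cells were called with opposite signs at both ages, at low levels. Iglc3, an immunoglobulin lambda constant gene, stood at 0.717, 0.412 and 0.899 FPKM in 3-month controls and 2.52, 2.13 and 1.64 in 3-month knockouts. At 12 months it stood at 3.92 and 2.67 FPKM in controls and 0.315 and 0.384 in knockouts. The groups were apart at both ages with opposite signs, and the contrast was -2.54 (SE 0.26; limma adjusted p = 0.00146). Cd79a, a signalling subunit of the B-cell receptor, had a contrast of -1.59 (adjusted p = 0.00636), and its partner Cd79b one of -1.71 (adjusted p = 0.013). The immunoglobulin delta gene Ighd (-1.60, adjusted p = 0.00183), the T-cell receptor beta gene Trbc2 (-1.80, adjusted p = 0.0245) and the lymphotoxin gene Ltb (-1.51, adjusted p = 0.0166) were chosen after their values were seen. The calls of Iglc3, Ighd and Cd79a held, with that of Cd79a lost without control replicate 2 of 12 months (adjusted p = 0.0617). Iglc3, Ighd, Cd79a, Cd79b, Ltb and Trbc2 averaged at least 1 FPKM in a table only through its higher group, so the limit favoured members that differ. The same holds for other calls named here with a group mean under 1 FPKM. These means were 0.838, 0.901 and 0.457 in the 12-month controls for Serpina3n, Chac1 and Ifi205, and 0.987 in the 3-month knockouts for Per1. Not all such genes reversed: Igkc, the immunoglobulin kappa constant gene, had effects of 2.04 and 1.22 and the chemokine gene Ccl5 of 0.61 and 0.94, and neither contrast passed (adjusted p = 0.793 and 0.849). Of the 16 lymphocyte and neutrophil markers 7 could be tested, and 2 were called, Cd79a and Cd79b. The summed level of all 16, 112 to 244 FPKM in 3-month controls, 210.1 to 486 in 3-month knockouts, 53.65 and 50.51 in 12-month controls and 20.65 and 173.9 in 12-month knockouts, did not separate the 12-month groups.

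Eln and 3 collagen genes were lower in the 12-month knockouts, with small differences at 3 months, and passed for the contrast. Eln, which encodes elastin, stood at 10.1, 13.4 and 19.5 FPKM in 3-month controls, 12.0, 18.7 and 15.8 in 3-month knockouts, 69.3 and 68.3 in 12-month controls, and 9.94 and 9.91 in 12-month knockouts. The groups overlapped at 3 months and were wide apart at 12 months, where the effect of -2.68 also passed within the age (limma adjusted p = 0.00806). The contrast was -2.81 (SE 0.34; adjusted p = 0.00283), and the call held and passed under every alternative. Of 31 elastic fibre and matrix glycoprotein genes, 2 passed, both below 0, Eln and the microfibril gene Fbn1 (-1.09, adjusted p = 0.0314, not held). The list's median contrast was -0.48.

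All but 1 of the 16 measured collagen genes had a contrast below 0, and 3 passed. Col3a1, a fibrillar collagen of interstitial matrix, stood at 41.7 to 56.4 FPKM in 3-month controls, 40.1 to 58.8 in 3-month knockouts, 402 and 392 in 12-month controls, and 140 and 90.5 in 12-month knockouts. Its contrast was -1.84 (SE 0.31; limma adjusted p = 0.0174). The basement membrane collagen Col15a1 had a contrast of -1.78 (adjusted p = 0.0117) and the microfibrillar collagen Col6a3 one of -1.33 (adjusted p = 0.0317). None of the 3 calls held (adjusted p = 0.107, 0.0772 and 0.164). The list's median effect was 0.01 at 3 months and -1.01 at 12 months, where 15 of 16 were lower in knockouts. Summed collagen RNA was 202.8 to 241.5 FPKM in all 3-month libraries, 1025 and 1008 in 12-month controls and 507 and 320 in 12-month knockouts. The fibroblast markers, which share Col1a1 and Col3a1 with the collagens, summed to 2055 and 2036 FPKM in 12-month controls and 1761 and 1842 in knockouts, and 9 of 12 were lower there. The part of fibroblast RNA in the collagen result was not tested.

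Scd1 and Fasn, enzymes of fatty acid synthesis, had called contrasts below 0 that did not hold. Scd1, the desaturase that makes monounsaturated fatty acids, stood at 2.25 to 7.75 FPKM in 3-month controls, 2.48 to 6.61 in 3-month knockouts, 62.6 and 63.3 in 12-month controls, and 5.39 and 5.49 in 12-month knockouts. The 3-month groups overlapped. The contrast of -3.51 (SE 0.58; limma adjusted p = 0.0166) did not hold (0.1). Fasn, fatty acid synthase, had a contrast of -1.73 (adjusted p = 0.017, not held), from 35.6 and 30.6 FPKM in 12-month controls and 9.26 and 7.53 in knockouts. These were the 2 called genes of 20 on the desaturase and synthesis list. Its median contrast was -0.16, with 7 of 20 above 0 against 40.8% of all genes tested. Adipocyte markers went both ways at 12 months. Adipoq stood at 11.0 and 7.46 FPKM in 12-month controls and 0.566 and 1.52 in knockouts, and Car3 at 29.8 and 32.0 against 3.37 and 3.30. Neither contrast passed (adjusted p = 0.124 and 0.131), and the 7 tested markers had a median contrast of -0.07. Of the 7, 3 were lower in 12-month knockouts and 4 higher, among them Pparg (effect 0.85), Lipe (0.80) and Fabp4 (0.74). The whole marker list summed to 720.3 and 717.0 FPKM in 12-month controls and 767.2 and 1474 in knockouts. The part of adipocyte RNA in the Scd1 result was not tested.

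On the fatty acid uptake and oxidation list, 28 of 34 contrasts were above 0 with a median of 0.38, and 30 of 34 genes were higher in knockouts at 12 months against 15 at 3 months. The only call was that of Ucp3, a mitochondrial uncoupling protein of muscle, with a contrast of 2.22 (SE 0.34; limma adjusted p = 0.0125), which did not hold (0.0806). It stood at 28.6, 43.7 and 31.4 FPKM in 3-month controls and 28.8, 20.5 and 26.8 in knockouts, and at 9.47 and 9.44 against 27.1 and 46.1 at 12 months. Pdk4, the kinase that inhibits pyruvate dehydrogenase, differed widely between its 12-month knockouts: 60.7 and 63.1 FPKM in 12-month controls and 188 and 1260 in knockouts. Its contrast of 3.22 did not pass (adjusted p = 0.0857).

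Respiratory chain genes were called at neither direction of the contrast. All 34 tested nuclear genes of complex I were higher in knockouts at 3 months (median 0.38) and 32 of 34 at 12 months (median 0.19), and the median contrast was -0.20 with none passing (lowest limma adjusted p = 0.377). Complex IV (12 genes, median contrast -0.31) and ATP synthase (16 genes, -0.31) were similar. Cytosolic ribosomal protein genes had a median effect of 0.45 at 3 months and 0.17 at 12 months, with 61 of 67 contrasts below 0 and a median of -0.26. There, 3 passed, none of them held: Rpl29 (-1.25, adjusted p = 0.0273), Rps7 (-1.37, adjusted p = 0.0422) and Rps2 (1.03, adjusted p = 0.0234). These genes have processed pseudogenes that can take up their reads.

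**Figure D3:**
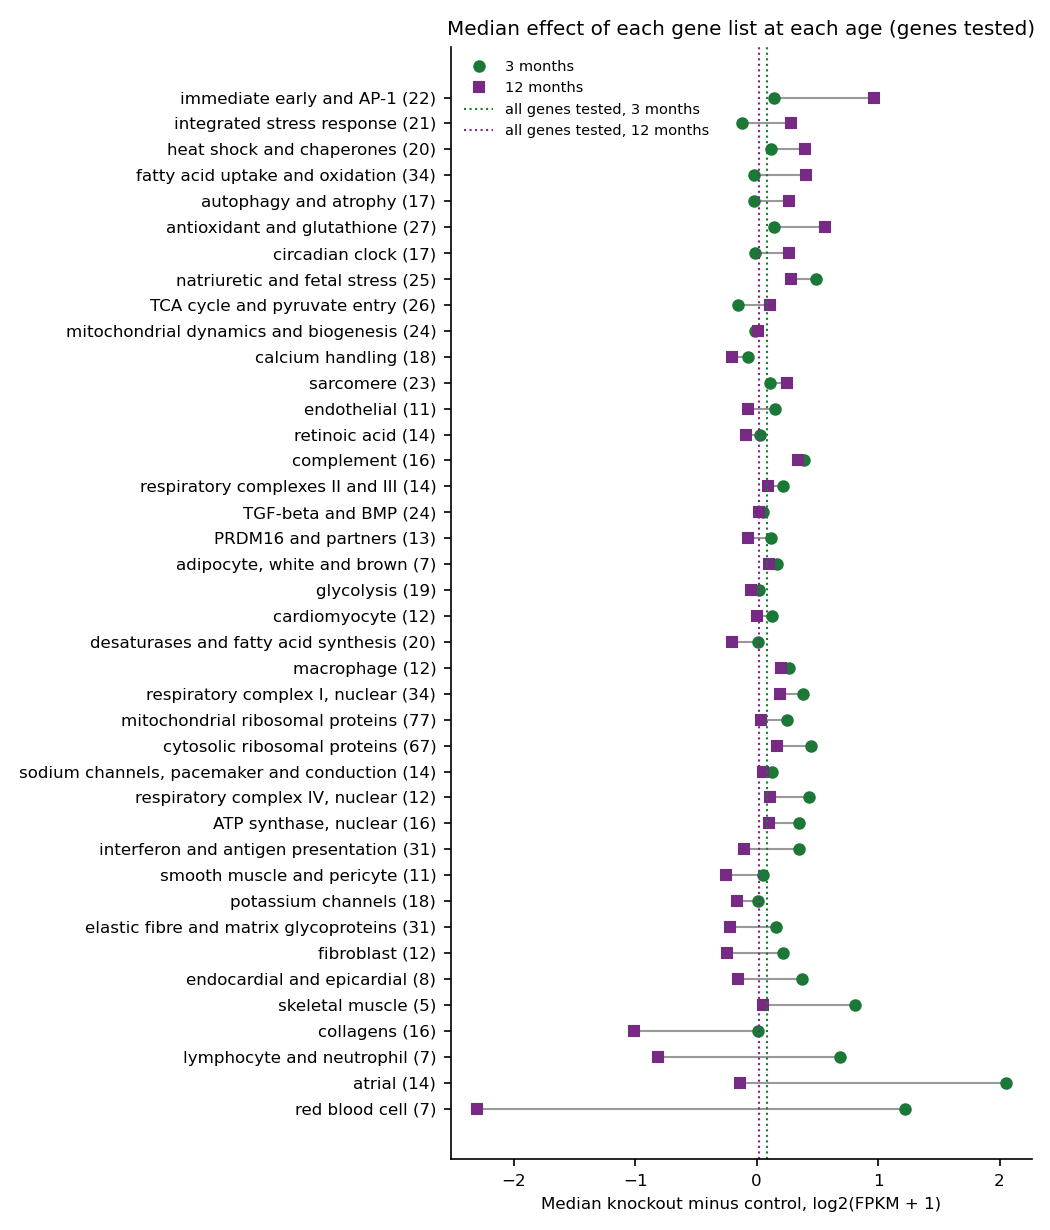
Each row is a gene list of at least 5 tested genes (number in brackets), with its median knockout minus control difference in log2(FPKM + 1) at 3 months (green circle) and 12 months (purple square); dotted lines are the medians of all genes tested. Red blood cell and collagen lists lie farther left at 12 months, and the immediate early list lies farther right.

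Of the genes of cardiac load, 19 of 25 were higher in knockouts at 3 months and 17 of 25 at 12 months, against 64.4% and 52.7% of all genes tested. Ankrd1, a stress-responsive ankyrin repeat protein of the sarcomere and nucleus, stood at 696, 583 and 551 FPKM in 3-month controls, 1030, 1110 and 1070 in 3-month knockouts, 410 and 419 in 12-month controls, and 1790 and 2310 in 12-month knockouts. The groups were apart at both ages in the same direction, with effects of 0.82 and 2.29 (limma adjusted p = 0.0449 within each age). The contrast of 1.47 (SE 0.22; adjusted p = 0.0115) did not hold (0.1). Nppa, which encodes atrial natriuretic peptide, had effects of 3.74 at 3 months and 1.99 at 12 months and a contrast of -1.74 that did not pass (adjusted p = 0.381). Myh7, the slow myosin heavy chain of the fetal heart, had effects of 0.96 and 2.66 and a contrast of 1.70 (adjusted p = 0.202).

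Of the 25 measured natriuretic and fetal stress genes, 2 passed above 0 and 2 below, with a median contrast of 0.20 that changed sign after rescaling to equal totals (-0.02). The genes below 0 were Acta2, smooth muscle actin (-1.44, adjusted p = 0.0199), and the NAD-synthesis kinase Nmrk2 (-1.40, adjusted p = 0.0257). Both were higher in knockouts at 3 months and lower at 12 months, and neither call held. Atrial markers were higher in knockouts at 3 months in 13 of 14 tested and at 12 months in 6 of 14. Their sum was 939 to 6545 FPKM in 3-month controls, 12670 to 29330 in 3-month knockouts, 6668 and 6514 in 12-month controls, and 16540 and 14450 in 12-month knockouts. Without Nppa the sums of 3 months overlapped, at 377.7 to 2719 FPKM in 3-month controls and 842.8 to 9478 in 3-month knockouts. At 12 months they were not higher in knockouts, with 3356 and 3280 FPKM in controls and 1436 and 3191 in knockouts. None of the 14 tested atrial markers passed for the contrast, with a median of -1.79, and how much atrial tissue each sample held was not tested.

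Potassium channel subunits held a call with effects in the same direction and a call below 0 at 12 months. Kcnj14, an inwardly rectifying channel subunit, stood at 0.328, 0.525 and 0.232 FPKM in 3-month controls, 21.1, 22.0 and 20.1 in 3-month knockouts, 0.234 and 0.236 in 12-month controls, and 4.87 and 4.71 in 12-month knockouts. Knockouts were far above controls at both ages (effects 4.02 and 2.23; limma adjusted p = 2.17e-06 and 0.0328). The contrast of -1.79 (SE 0.18; adjusted p = 0.00135) held. Its controls averaged under 1 FPKM at both ages, so the gene entered the test through its knockouts, and the contrast rests mainly on knockout levels from tables that were scaled separately. Kcne1, the accessory subunit of the slow delayed rectifier, stood at 23.4 and 24.9 FPKM in 12-month controls and 2.23 and 1.17 in knockouts. Its contrast of -2.64 (adjusted p = 0.0271) did not hold (0.138). It was also lost when control replicate 2 or 3 or knockout replicate 1 or 2 of 3 months was left out. No other of the 18 channel genes passed.

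Among the remaining largest contrasts below 0, Tfrc, the transferrin receptor, stood at 59.3 and 60.7 FPKM in 12-month controls and 15.1 and 2.71 in knockouts, with overlapping groups at 3 months. Its contrast of -2.97 (limma adjusted p = 0.0499) was lost in 15 of 21 alternatives. Tnni2, the fast skeletal troponin I, had effects of 0.81 and -1.51 and a contrast of -2.32 (adjusted p = 0.0108) that held (0.0492) and was lost without control replicate 1 of 12 months (0.0753). Ube2l6, the interferon-inducible enzyme that attaches ISG15, had effects of 0.58 and -1.41 and a contrast of -1.98 (adjusted p = 0.00399) that held. No member of the interferon and antigen presentation list passed, although 29 of 31 contrasts were below 0 (median -0.36). Lrrfip1, a nucleic acid-binding adaptor, had a contrast of -1.59 (adjusted p = 0.00238) that held.

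Above 0, Ifi205, an interferon-inducible gene, had a contrast of 2.43 (limma adjusted p = 0.034) that did not hold (0.16) and was lost without knockout replicate 2 of 12 months. Atp6v0c, the proton-pore subunit of the vacuolar ATPase, was lower in knockouts at 3 months (54.2, 64.7 and 48.6 FPKM in controls, 36.7, 33.6 and 39.1 in knockouts) and higher at 12 months (12.5 and 13.4 against 25.8 and 28.2). Its contrast of 1.60 (SE 0.20; adjusted p = 0.00367) held. The processed pseudogene Atp6v0c-ps2 had a contrast of -1.68 (adjusted p = 0.00135), opposite to its parent gene, so how reads were split between them bears on both values. The zinc-finger gene Zfp945 (1.88, adjusted p = 0.00361) and the mitochondrial tRNA-modifying enzyme gene Cdk5rap1 (1.30, adjusted p = 0.00482) also held, the latter with its larger effect at 3 months (-1.07) and its call lost without control replicate 2 of 12 months (0.0538) and after rescaling to equal totals (0.0844). Lrrfip1, Atp6v0c, Zfp945 and Cdk5rap1 were chosen after their values were seen.

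**Figure D4:**
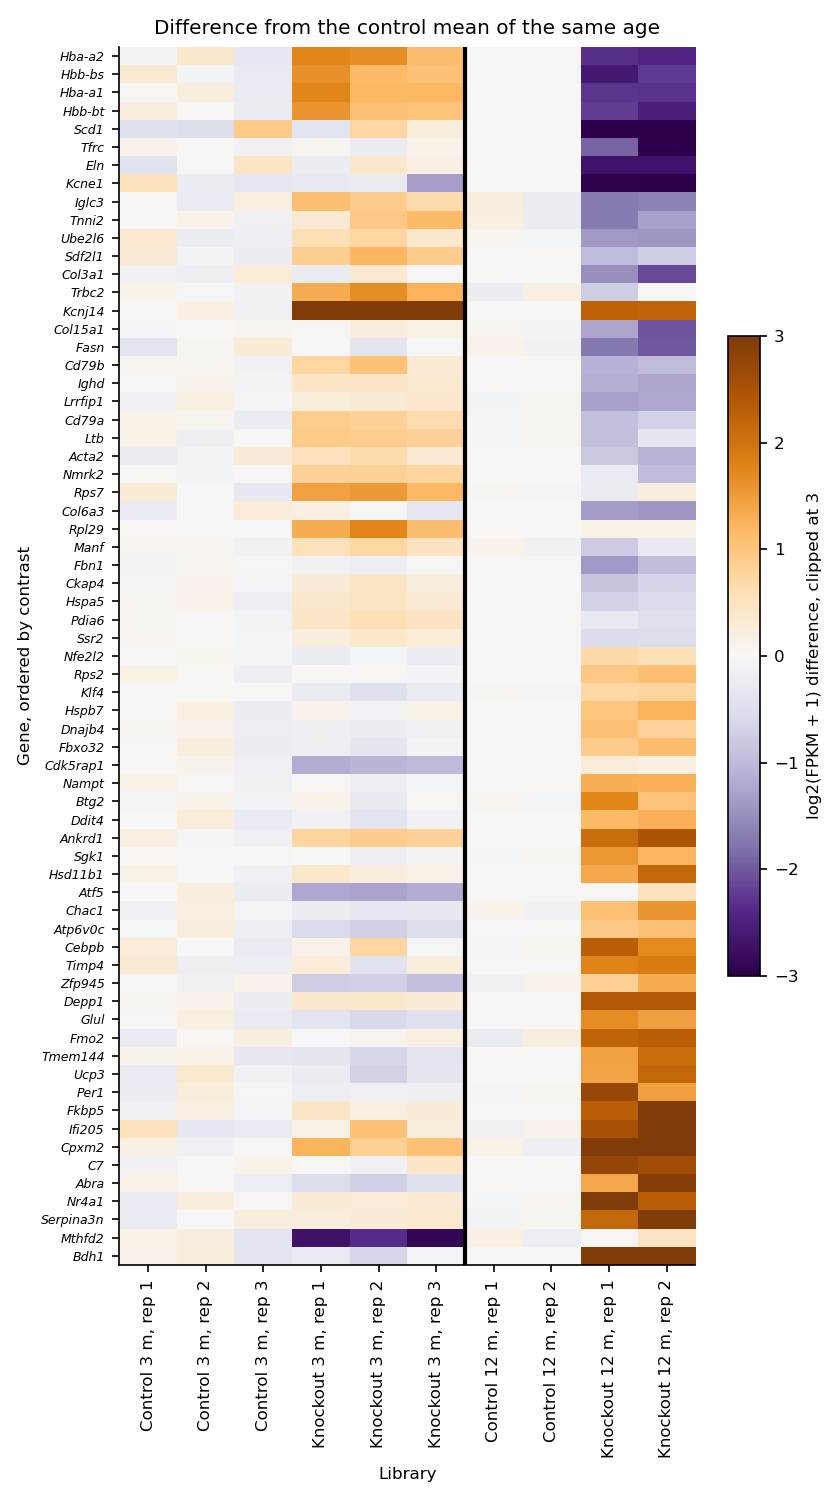
Rows are the named genes called for the difference between ages, ordered by contrast from lowest (top) to highest (bottom), and columns are the 10 libraries; colour is the difference in log2(FPKM + 1) from the control mean of the same age, clipped at 3. The upper genes are mostly orange or pale in 3-month knockouts and purple in 12-month knockouts, the lower genes are orange in 12-month knockouts, and the 2 controls of 12 months are nearly colourless because they hardly differ.

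The antioxidant and autophagy lists held 1 call each. In the antioxidant list 22 of 27 contrasts were above 0 (median 0.34), with Nfe2l2, which encodes the regulator NRF2, passing at 0.78 (limma adjusted p = 0.0486, not held). The autophagy and atrophy list had a median of 0.36 and a call for the ubiquitin ligase Fbxo32 (1.20, adjusted p = 0.0218, not held). It stood at 15.3 and 16.3 FPKM in 12-month controls and 30.5 and 35.1 in knockouts. Calcium handling, sarcomere, glycolysis, TCA cycle, retinoic acid, endothelial and macrophage lists held no call, with median contrasts from -0.20 to 0.17.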

How the data were processed

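RNA of 10 mouse heart libraries was measured by RNA-seq. The deposited values are FPKM per gene, 1 table per age, per the file headers. The submitters' processing notes name FastQC, TopHat2 2.1.0, STAR 2.5.1b, Cufflinks 2.1.1 and the builds mm10 and GRCm38, without their roles. By its name, the authors had removed outliers from the table of 12 months. Summed FPKM was 516272 to 718787 at 3 months and 890181 to 1171104 at 12 months.

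There were 46855 entries at 3 months, where the values of 69 repeated identifiers were added up, and 46977 at 12 months. Identifiers were matched without their version, 191 genes found only at 12 months were not used, and GENCODE M21 gave chromosome and type for 46297 and 46484 genes. FPKM carry no counts, so limma 3.58.1 (R 4.3.3) was run on log2(FPKM + 1) over 4 group means with an intensity trend and Benjamini-Hochberg adjustment, on the genes averaging at least 1 FPKM. The steps were checked on simulated data. Depth at 12 months was recovered from low values of single-transcript genes, of which 84.3% to 85.5% lay within 0.05 of a whole read, against 20.9% to 34.5% at 3 months. That share was too low for a count test.

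Named genes are the 12 largest called contrasts per direction whose higher group reached 2 FPKM, leaving out predicted genes, pseudogenes and small RNAs, up to 3 lowest-p members of each list described, genes called within both ages, the 4 largest called effects per age and direction, and Prdm16. The members, the 43 gene lists and the CACCC and CCAAT boxes were chosen with earlier results of these data known. In all, 20 other settings changed the pseudocount, level limit, scaling, variance model or libraries, and 1 more, the 12-month controls as 1 sample, was added after the data were seen. Of the genes the rule gives, 2 are not reported here.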

Additional observations from a re-analysis of the deposited data

Results flagged for a closer look

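The results here are the named genes whose knockout effect differed between the ages by a test of the difference itself (limma interaction contrast, Benjamini-Hochberg adjusted p under 0.05). Values are contrasts in log2(FPKM + 1), 12 months minus 3 months. Groups of 2 or 3 libraries are too small to look for a single deviating sample.

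With the 12-month controls counted as 1 sample, 27 of the 67 named genes still passed. Above 0 these were Bdh1 (4.62), Mthfd2 (2.90), C7 (2.57), Cpxm2 (2.56), Fkbp5 (2.34), Tmem144 (2.22), Fmo2 (2.17), Glul (2.04), Depp1 (2.03), Zfp945 (1.88), Atp6v0c (1.60), Sgk1 (1.47), Nampt (1.35) and Cdk5rap1 (1.30). Below 0 they were the globin genes Hba-a2 (-3.87), Hbb-bs (-3.71), Hba-a1 (-3.67) and Hbb-bt (-3.59), the elastin gene Eln (-2.81), the B-cell genes Iglc3 (-2.54), Ighd (-1.60) and Cd79a (-1.59), and Tnni2 (-2.32), Ube2l6 (-1.98), Sdf2l1 (-1.85), Kcnj14 (-1.79) and Lrrfip1 (-1.59).

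The other 40 no longer passed in that way, nor without either 12-month control. Above 0 these were Serpina3n (2.87), Nr4a1 (2.78), Abra (2.70), Ifi205 (2.43), Per1 (2.23), Ucp3 (2.22), Timp4 (1.79), Cebpb (1.75), Chac1 (1.59), Atf5 (1.50), Hsd11b1 (1.50), Ankrd1 (1.47), Ddit4 (1.43), Btg2 (1.42), Fbxo32 (1.20), Dnajb4 (1.09), Hspb7 (1.07), Klf4 (1.04), Rps2 (1.03) and Nfe2l2 (0.78). Below 0 they were Scd1 (-3.51), Tfrc (-2.97), Kcne1 (-2.64), Col3a1 (-1.84), Trbc2 (-1.80), Col15a1 (-1.78), Fasn (-1.73), Cd79b (-1.71), Ltb (-1.51), Acta2 (-1.44), Nmrk2 (-1.40), Rps7 (-1.37), Col6a3 (-1.33), Rpl29 (-1.25), Manf (-1.11), Fbn1 (-1.09), Ckap4 (-1.07), Hspa5 (-1.02), Pdia6 (-0.88) and Ssr2 (-0.81).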

How the results depend on the processing

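The count of 159 genes called for the difference between ages stayed within 1.5 times under 7 alternatives, the pseudocounts 0.1 (152) and 5 (187), a limit of 5 FPKM (127) or none (173), no variance trend (149), robust variances (163) and a spread per age (150). Median-of-ratios rescaling gave 208 (127 above 0, 81 below) and rescaling to equal totals 140 (37 above, 103 below). With the 12-month controls counted as 1 sample, which leaves fewer samples, it was 36 (19 above, 17 below). Leaving out 1 library gave 33 to 770, with 18 to 374 above 0 and 15 to 396 below. By library it was 96, 86 and 111 without 3-month control replicate 1, 2 or 3, 74, 118 and 86 without 3-month knockout replicate 1, 2 or 3, 36 and 33 without 12-month control replicate 1 or 2, and 770 and 341 without 12-month knockout replicate 1 or 2. Where 1 library is left in a group, it is assumed to vary like the other groups. No called gene changed sign in any of the 21 alternatives that tested it, though those changing only the variance model cannot change a sign. Of the called genes, 17 were called in all alternatives, where a gene absent under the limit of 5 FPKM counts as not called.

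A replicate block gave 45 calls (21 above 0, 24 below), 29 at 3 months and 40 at 12 months. The numbers do not pair the samples, since same-numbered deviations correlated at -0.03, -0.53 and -0.1 at 3 months and -0.03 and -0.03 at 12 months. Of the 67 named calls, 36 were lost under the block.

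Within an age, the 91 calls of 3 months became 10 with no level limit, 59 and 142 under the 2 rescalings, and 25 to 77 when a library was left out (25 without control replicate 2). The 52 calls of 12 months became 17 with no level limit, 0 with the controls as 1 sample and 0 to 4463 when a library was left out. The correlation of both effects, 0.124, ranged from -0.047 to 0.22 over the left-out libraries. The cause of these changes was not tested. Depth is unknown at 3 months, so the precision of low values there is unknown too.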
